A study of Mus musculus with 8 samples.

Results

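The genes described here are 10 that are often read out together in activated T cells: the galectins Lgals1 and Lgals3, the S100 genes S100a4, S100a6, S100a10 and S100a11, the annexins Anxa1 and Anxa2, the intermediate filament gene Vim and the giant scaffold gene Ahnak. They were chosen by symbol, and all 10 were found among the 24453 rows of the deposited table. The study set mouse regulatory T (Treg) cells of 2 lines derived by somatic cell nuclear transfer, T143 and T138, against wild-type (WT) Treg cells. Cells were sorted as CD4-positive and Foxp3-positive, received no treatment, and their polyadenylated RNA was sequenced in 3 T143, 2 T138 and 3 WT libraries. Per the series description T143 represents agonist-induced and T138 naturally occurring Treg cells. The strain label NOD-Foxp3GFP-Rag1-/- is given to all 3 groups, WT included, so it is unclear whether WT mice lack Rag1. An animal of such a line is made from the nucleus of 1 cell, so each line stands for 1 founder cell. Ages are not given in the labels, and the labels do not say whether libraries of a group came from separate animals, so each p-value refers only to the spread among libraries.

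Galectins are lectins that bind galactose-containing glycans on surface glycoproteins. S100 proteins are small calcium-binding proteins, and annexins bind acidic phospholipids of membranes when calcium is present. S100A10 and annexin A2 form a complex at the inner face of the plasma membrane that also binds the large protein AHNAK. Vimentin is the main intermediate filament protein of lymphocytes. Many of these genes are low in resting and high in activated, effector or memory T cells, and nearly all are also strongly expressed by neutrophils, monocytes, macrophages or dendritic cells.

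The sequences around the gene starts are shown because the genes differ there in 2 common motifs. RefSeq windows from 250 bases before to 50 bases after the start (GRCm38.p6) were found for 8 of the 10 genes. The AP-1 motif (letters TGANTCA, both strands), bound by Fos and Jun factors, was in the windows of S100a11 and Anxa2 and in 7.81% of all 32851 windows. In S100a11 it stood at position -136 and at position -38, and in Anxa2 at -95, counted from the start, where it shares bases with a CACCC match. A TATA box (TATAAA, both strands) was in 4 of the 8 windows and in 13.6% of all windows, at -31 in S100a4, -32 in Anxa1, -32 in Vim and -17 in Anxa2. These letters are matches and say nothing about binding. The 4 windows shown hold either match, in capitals, the other bases being in lower case.
S100a11 (chr3:93520246-93520545, plus strand): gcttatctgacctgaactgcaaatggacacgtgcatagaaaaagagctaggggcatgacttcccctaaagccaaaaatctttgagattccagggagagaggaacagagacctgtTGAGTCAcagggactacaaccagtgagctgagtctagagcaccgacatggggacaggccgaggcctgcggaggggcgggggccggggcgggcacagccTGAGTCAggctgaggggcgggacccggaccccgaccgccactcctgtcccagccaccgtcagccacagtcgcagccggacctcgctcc
Anxa2 (chr9:69453433-69453732, plus strand): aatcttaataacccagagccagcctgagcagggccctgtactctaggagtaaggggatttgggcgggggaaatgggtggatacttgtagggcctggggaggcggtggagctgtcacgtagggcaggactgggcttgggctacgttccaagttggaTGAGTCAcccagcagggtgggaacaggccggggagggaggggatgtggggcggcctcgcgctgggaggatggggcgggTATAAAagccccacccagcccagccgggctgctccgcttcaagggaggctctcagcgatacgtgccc
S100a4 (chr3:90603520-90603819, plus strand): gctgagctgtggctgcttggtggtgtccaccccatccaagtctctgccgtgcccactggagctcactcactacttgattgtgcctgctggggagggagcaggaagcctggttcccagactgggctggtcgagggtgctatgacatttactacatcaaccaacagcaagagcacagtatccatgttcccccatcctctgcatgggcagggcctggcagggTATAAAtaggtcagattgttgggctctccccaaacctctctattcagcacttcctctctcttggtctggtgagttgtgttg
Anxa1 (chr19:20390622-20390921, minus strand): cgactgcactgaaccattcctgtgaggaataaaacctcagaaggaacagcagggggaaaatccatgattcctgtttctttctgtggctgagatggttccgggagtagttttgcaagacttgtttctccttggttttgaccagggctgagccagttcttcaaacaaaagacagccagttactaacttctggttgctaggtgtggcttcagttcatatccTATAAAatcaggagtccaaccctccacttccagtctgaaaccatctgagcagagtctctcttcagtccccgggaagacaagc
The letters GGGCGG (GC box, both strands) were in 4 of the 8 windows against 35.7% of all, and CACCC (KLF motif, both strands) in 5 of 8 against 57.5%.

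Levels below are normalised read counts: reads per gene divided by 1 factor per library that brings each library to the same total of 15.59 M. Recovered depth was 7.83 to 12.6 M reads in T143, 15.84 and 18.41 M in T138 and 14.64 to 22.64 M in WT, and the lowest of the 10 genes in any library, Lgals3 in WT replicate 2, rested on 56 reads. The T cell marker list (7 genes, all above 0 in every library) took 0.322 to 0.557% of the total in T143, 0.404 and 0.415% in T138 and 0.477 to 0.578% in WT. The 4 Treg markers (Foxp3, Il2ra, Ctla4 and Ikzf2) took 0.0547 to 0.115% in T143, 0.51 and 0.522% in T138 and 0.432 to 0.553% in WT. T143 thus held low levels of these markers, among them Foxp3, by which its cells were sorted. Cd4, the other sorting marker, had a mean of 13240 in T143, 12530 in T138 and 16360 in WT. Foxp3 was at 3920, 6299 and 8694 for T143, 41850 and 41160 for T138 and 29770, 36360 and 35360 for WT. T143 libraries also differed in sex-linked RNA. Xist was at 19140 to 24990 in T143, at most 2.95 in T138 and at most 129.9 in WT. Ddx3y was at most 1.27 in T143, 3634 and 3175 in T138 and 2094 to 3018 in WT. Both genes split T143 from the other groups. In T143 against T138 and against WT, line and sex therefore cannot be told apart. The source names of T143 replicate 1 and WT replicate 1 name another mouse than their titles, and titles were followed.

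RNA of myeloid cells, a known source of the genes described, differed between the groups. The 15 neutrophil markers were all above 0 in T143 and T138, and took 0.621 to 3.8% of the total in T143, 0.0309 to 0.164% in T138 and 0.000539 to 0.00578% in WT, where 7 to 10 of them were above 0. The 12 monocyte and macrophage markers took 0.105 to 0.361% in T143, 0.0552 to 0.0809% in T138 and 0.0211 to 0.0282% in WT. The 10 dendritic cell markers were highest in T138, at 0.495 to 0.658%, against 0.044 to 0.181% in T143 and 0.00807 to 0.0109% in WT. The neutrophil gene S100a9 was at 31220, 51230 and 198600 across T143 libraries, 7989 and 1218 across T138 libraries and 33.75, 14.91 and 4.56 across WT libraries. The MHC class II gene H2-Aa, high in dendritic cells, was at 1194, 5468 and 3886 for T143, 20490 and 14710 for T138 and 365, 95.85 and 140.6 for WT. In such bulk samples, more cells of a type and more RNA per cell cannot be told apart, and the part of these cells in the results below was not tested.

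**Figure D1:**
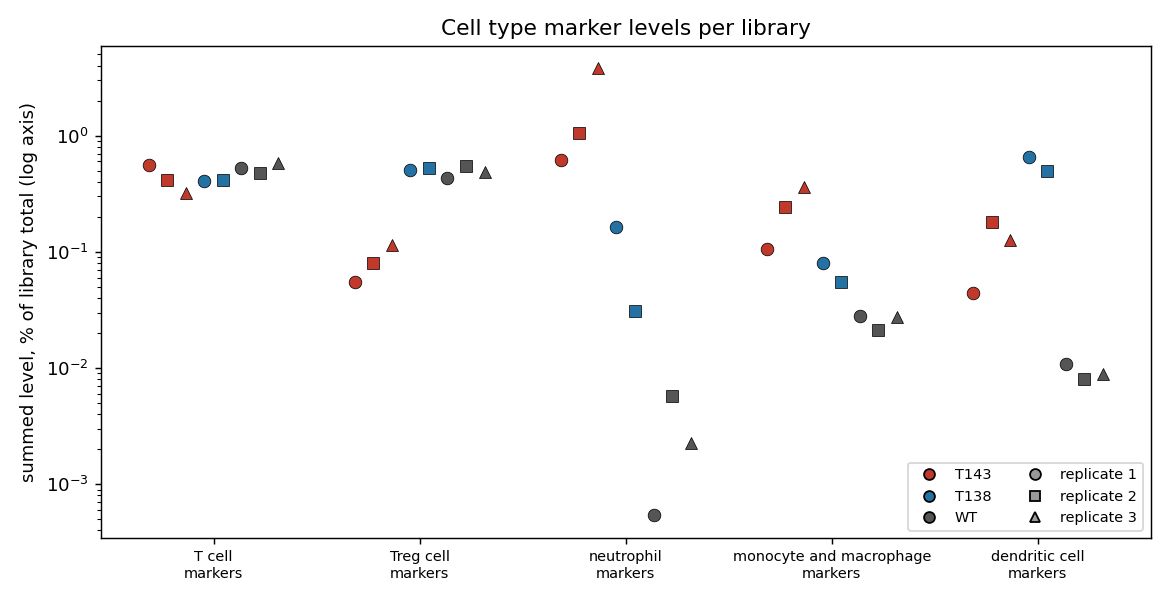
Summed level of 5 marker lists as a percent of each library's total (log axis), with colours for the groups T143, T138 and WT and symbols for the replicates. Neutrophil markers are highest in T143 (0.621 to 3.8%) and dendritic cell markers in T138 (0.495 to 0.658%), while Treg markers are lowest in T143 (0.0547 to 0.115%).

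In each line 8 of the 10 genes rose relative to WT, though not the same 8. In T138 Lgals1, Lgals3, S100a4, S100a6, S100a10, S100a11, Anxa1 and Vim rose, by 1.15 to 4.06 on the log2 scale, and 0 fell, where 5.74% of all genes were called higher and 5.30% lower. In T143 S100a10 was near the WT level, Anxa2 was called in its place and Ahnak fell, so that 8 rose and 1 fell, where 11.7% of all genes were called higher and 12.1% lower. Between the lines Anxa1 was higher in T143 than in T138, and S100a4, S100a10 and Ahnak were lower, where 10.8% of all genes were called higher and 10.2% lower. The test was limma on log2(value + 1) over the 15547 genes that reached 1 in 2 or more libraries, called at a Benjamini-Hochberg adjusted p under 0.05. The count of 0 lower in T138 against WT was also 0 at an unadjusted p under 0.05, in edgeR and in DESeq2.

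Lgals1 encodes galectin-1, a secreted lectin that restrains effector T cells and contributes to suppression by Treg cells (chromosome 15, 78926725 to 78930465, GRCm38). Its level was 2780, 2073 and 3202 across T143 libraries, 3947 and 4112 across T138 libraries and 1557, 1127 and 1977 across WT libraries. Every T143 library lay between the other groups and none of the groups overlapped. Lgals1 rose by 1.41 ± 0.24 (SE, log2) in T138 against WT (adjusted p = 0.00454) and by 0.8 ± 0.21 in T143 against WT (adjusted p = 0.0212). The T143 against T138 difference of -0.61 (95% interval -1.14 to -0.08) did not pass after adjustment (adjusted p = 0.0967). The rise in T143 was called in 15 of 21 alternatives (adjusted p 0.00179 to 0.842), and not without T143 replicate 1 (adjusted p = 0.0594), T143 replicate 3 (0.065) or WT replicate 2 (0.0653). The T143 against T138 difference passed without WT replicate 2 (adjusted p = 0.0495). GENCODE lists 2 processed pseudogenes named after Lgals1, so reads shared with them make its level uncertain.

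Lgals3 encodes galectin-3, a galectin abundant in macrophages and induced in activated T cells (chromosome 14, 47373860 to 47386167). It was at 764.2, 1615 and 4098 for T143, 1156 and 1426 for T138 and 60.61, 59.64 and 122.4 for WT. All libraries of both lines lay above all WT libraries, while the lines overlapped. The change was 4.06 ± 0.6 in T138 against WT (adjusted p = 0.00298), a 16.6-fold rise, and 4.47 ± 0.53 in T143 against WT (adjusted p = 0.00058), a 22.2-fold rise. Between T143 and T138 it was 0.42, with an interval from -0.92 to 1.76 that allows a difference in either direction, and it turned to -0.21 without T143 replicate 3.

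**Figure D2:**
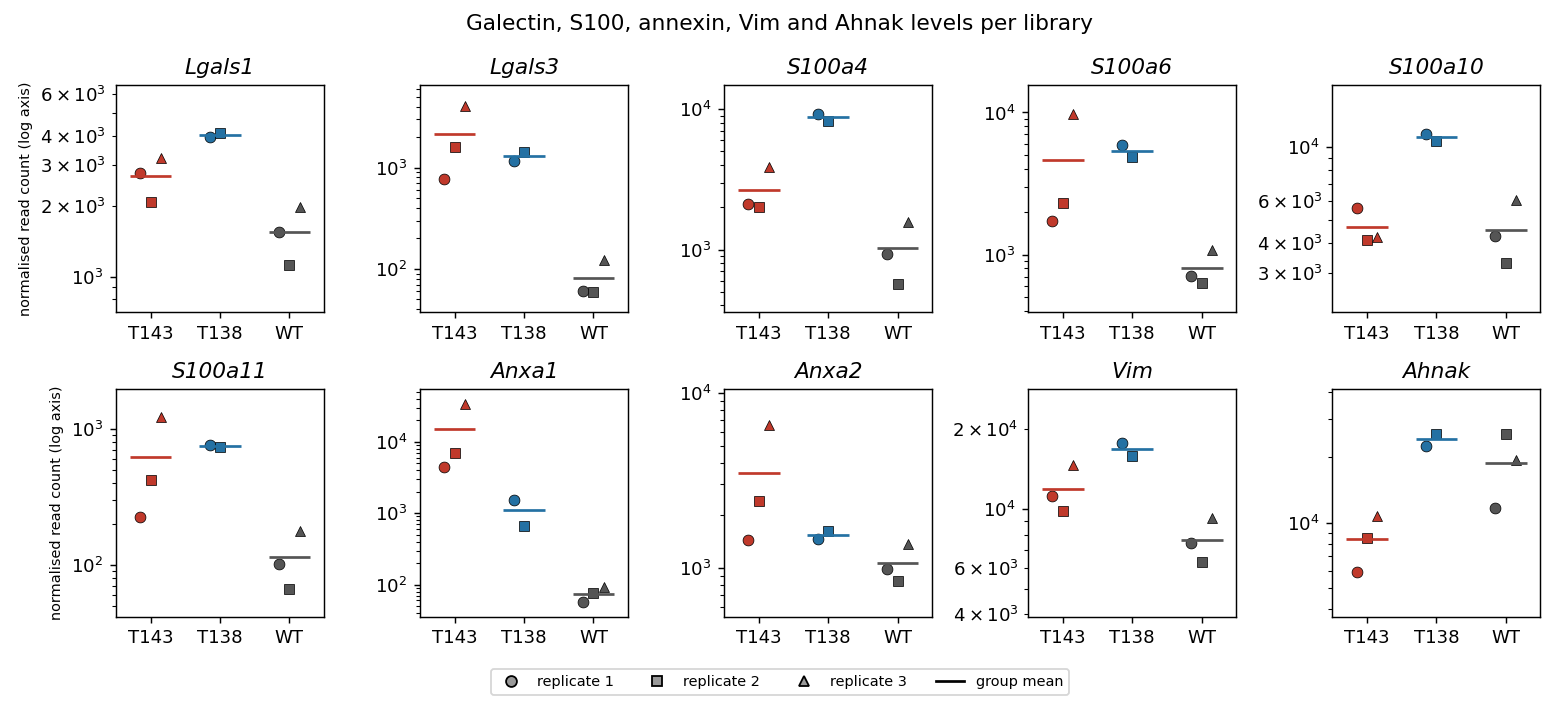
Normalised read count of each of the 10 genes per library (log axis), with T143, T138 and WT from left to right, symbols for replicates and lines for group means. T138 libraries sit above all T143 and WT libraries for Lgals1, S100a4, S100a10 and Vim, whereas T143 replicate 3 is the highest library for Lgals3, S100a6, S100a11, Anxa1 and Anxa2.

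Among the S100 genes, S100a4 separated T138 from both other groups. S100a4 encodes a protein that binds non-muscle myosin and is raised in memory T cells and in macrophages (chromosome 3, 90603770 to 90606045). It was at 2111, 2001 and 3889 across T143 libraries, 9296 and 8176 across T138 libraries and 925.7, 570.8 and 1567 across WT libraries. The 3 groups did not overlap, with T138 highest and WT lowest. S100a4 rose 9.27-fold in T138 against WT (log2 change 3.21 ± 0.4, adjusted p = 0.00129) and 2.7-fold in T143 against WT (1.44 ± 0.35, adjusted p = 0.017). It was 3.43-fold lower in T143 than in T138 (-1.78 ± 0.4, adjusted p = 0.0128). The rise in T143 against WT was called in 17 of 21 alternatives, with log2 changes of -0.43 to 1.8 (adjusted p 0.000126 to 0.945). It was lost in edgeR (1.44, adjusted p = 0.0551), without T143 replicate 1 and WT replicate 1 together (1.56, 0.0693), without T138 replicate 1 and T143 replicate 3 together (1.13, 0.069) and with the level of myeloid markers as a covariate (-0.43, 0.945). The T143 against T138 call was made in 17 of 21 alternatives (adjusted p 5.97e-05 to 0.0661) and was lost without T138 replicate 1 (0.065) or T138 replicate 2 (0.0603), with little change in size (-1.69 and -1.87). The marker lists differed in their order of groups. The neutrophil gene S100a9 was higher in T143 than in T138, and dendritic cell markers were highest in T138. Monocyte and macrophage markers took 0.105 to 0.361% of the total in T143 and 0.0552 to 0.0809% in T138, but these 12 genes did not move together. Lyz2 was called higher in T143 than in T138 (3.75, adjusted p = 0.00489), 0 were called lower and 11 were not called. Which cells the S100a4 RNA came from was not tested.

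S100a10, which encodes the annexin A2 partner p11 (chromosome 3, 93555117 to 93564645), was the member with T143 nearest to WT. Its level was 5566, 4099 and 4250 for T143, 11320 and 10640 for T138 and 4279, 3297 and 6038 for WT. T138 lay above every other library, and T143 lay within the WT range. S100a10 rose by 1.32 ± 0.23 in T138 against WT (adjusted p = 0.00547) and was lower by a log2 change of -1.26 ± 0.23 in T143 against T138 (adjusted p = 0.00453). The T143 against WT change of 0.06 had an interval from -0.4 to 0.52, and its sign depended on the scaling (-0.07 after median centring). The rise in T138 was called in 18 of 21 alternatives (adjusted p 1.25e-06 to 0.32) and fell just short without T138 replicate 1 (0.0509).

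S100a6 and S100a11 had a like pattern. S100a6, or calcyclin, is raised in proliferating and activated cells (chromosome 3, 90612894 to 90614414), and was at 1737, 2316 and 9761 across T143 libraries, 5923 and 4850 across T138 libraries and 708.7, 628.4 and 1075 across WT libraries. S100a11, an annexin A1 partner (chromosome 3, 93520496 to 93526288), was at 224.9, 423.8 and 1227 for T143, 756.9 and 736.6 for T138 and 101.2, 67.09 and 177.8 for WT. For each gene the lines lay above WT in every library, T143 replicate 3 was the highest of the 8 libraries, and T143 replicates 1 and 2 lay below T138. S100a6 rose by 2.77 ± 0.6 in T138 against WT (adjusted p = 0.0191) and by 2.12 ± 0.54 in T143 against WT (adjusted p = 0.02). S100a11 rose by 2.8 ± 0.62 in T138 against WT (adjusted p = 0.0177) and by 2.19 ± 0.55 in T143 against WT (adjusted p = 0.0172). Neither passed for T143 against T138, at -0.66 (adjusted p = 0.472) and -0.61 (adjusted p = 0.515), but without T143 replicate 3 S100a6 was lower in T143 (-1.42, adjusted p = 0.00455). GENCODE lists a processed pseudogene of S100a11, so its level is uncertain too.

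Several calls of S100a6 and S100a11 against WT were lost when 1 library was left out, although every T143 and T138 library lay above every WT library. For T138 against WT, S100a6 was not called without T138 replicate 1 (adjusted p = 0.0876), T138 replicate 2 (0.0727) or WT replicate 2 (0.0548), of a range from 8.37e-06 to 0.733 over 21 alternatives. S100a11 was likewise not called without T138 replicate 1 (0.0881), T138 replicate 2 (0.0956) or WT replicate 2 (0.0601), of a range from 8.16e-05 to 0.874. For T143 against WT, S100a6 lost its call without WT replicate 1 (0.0524) or WT replicate 2 (0.0667), of a range from 0.00189 to 0.404, and S100a11 without WT replicate 2 (0.0726), of a range from 2.96e-05 to 0.583.

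Anxa1 had the largest change of the 10 genes in T143 against WT and against T138. It encodes annexin A1, a protein of the anti-inflammatory response that is abundant in neutrophils and signals through formyl peptide receptors (chromosome 19, 20373434 to 20390671). Its level was 4420, 6992 and 34160 across T143 libraries, 1551 and 669.7 across T138 libraries and 57.17, 75.61 and 91.96 across WT libraries. The groups did not overlap, and T143 replicate 3 stood far above the other T143 libraries. Anxa1 rose 137-fold in T143 against WT (log2 change 7.09 ± 0.65, adjusted p = 0.000169) and 13.7-fold in T138 against WT (3.77 ± 0.73, adjusted p = 0.0111). It was 9.98-fold higher in T143 than in T138 (3.32 ± 0.73, adjusted p = 0.0125). Between the lines the call was made in 17 of 21 alternatives (adjusted p 0.00107 to 0.938) and lost without T138 replicate 2 (0.0925), in edgeR on recovered reads (0.075) and in a fit of only these 2 groups (0.0523). With the level of myeloid markers as a covariate the difference between the lines was 0.12 ± 0.56 (adjusted p = 0.938). The T138 against WT call was lost without T138 replicate 1 (0.0738), in edgeR (0.0867) and with that covariate (-1.84, adjusted p = 0.48), of a range from 0.000101 to 0.48. S100a9 ran in the same order of groups as Anxa1, and between the T138 libraries both were higher in replicate 1.

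Anxa2 encodes annexin A2, which links membranes to actin and binds S100A10 (chromosome 9, 69453683 to 69491792). It was at 1449, 2427 and 6574 for T143, 1459 and 1621 for T138 and 991.8, 844.5 and 1374 for WT. T143 replicate 1 lay below both T138 libraries, and the margin of T143 over the highest WT library was small. Anxa2 rose by 1.44 ± 0.45 in T143 against WT (adjusted p = 0.0464), a call made in 8 of 21 alternatives (adjusted p 0.00415 to 0.437). The call was lost in edgeR and with median centring, a pseudocount of 0.1 or a filter of at least 10 in at least 3 libraries. It was also lost in a fit of only these 2 groups and with the level of myeloid markers as a covariate. It was lost without T143 replicate 2 (0.0808), T138 replicate 1 (0.0553), T138 replicate 2 (0.0552), WT replicate 1 (0.0994), WT replicate 2 (0.132) or WT replicate 3 (0.0578). The change was 0.55 (-0.59 to 1.69) in T138 against WT and 0.89 (-0.25 to 2.03) in T143 against T138, where the gene passed only without T143 replicate 1 (1.38, adjusted p = 0.044). Per transcript length, S100a10 transcripts per Anxa2 transcript numbered 8.12, 3.57 and 1.37 across T143 libraries, 16.4 and 13.9 across T138 libraries and 9.11, 8.25 and 9.28 across WT libraries. Both T138 libraries lay above the WT libraries in this ratio. All T143 libraries lay below them, though T143 replicate 1 (8.12) only just below WT replicate 2 (8.25). The ratio was not tested.

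Vim was called higher in both lines. It was at 11190, 9793 and 14690 for T143, 17670 and 15880 for T138 and 7435, 6280 and 9231 for WT (chromosome 2, 13574311 to 13582826). The groups did not overlap and stood in the order of Lgals1, with T138 highest. Vim rose by 1.15 ± 0.2 in T138 against WT (adjusted p = 0.00559) and by 0.63 ± 0.18 in T143 against WT (adjusted p = 0.0295), and changed by -0.52 (-0.97 to -0.06) in T143 against T138 (adjusted p = 0.0976). The T143 rise was called in 12 of 21 alternatives (adjusted p 0.00234 to 0.921). It was lost without T143 replicate 1 (0.0518), T143 replicate 3 (0.0775), T138 replicate 2 (0.0501), WT replicate 1 (0.0717) or WT replicate 2 (0.0957). The T138 rise was lost without T138 replicate 1 (0.0602, of a range from 1.92e-06 to 0.761), and without T143 replicate 3 Vim was lower in T143 than in T138 (-0.68, adjusted p = 0.0293).

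Ahnak departed from the others. It encodes a very large scaffold protein that binds the S100A10 and annexin A2 complex and is linked to calcium entry in T cells (chromosome 19, 8989284 to 9076935). It was at 5928, 8507 and 10710 across T143 libraries, 22600 and 25660 across T138 libraries and 11620, 25510 and 19470 across WT libraries. All T143 libraries lay below all others, and T138 lay within or just above the wide WT range. Ahnak was 2.96-fold lower in T143 than in T138 (-1.56 ± 0.31, adjusted p = 0.00694) and 2.2-fold lower than in WT (-1.14 ± 0.28, adjusted p = 0.0151). The T138 against WT change of 0.42 (-0.27 to 1.12) did not pass (adjusted p = 0.45). The fall against WT was not called without WT replicate 2 (0.0586) or WT replicate 3 (0.0597, of a range from 0.000326 to 0.277), and that against T138 not without T138 replicate 2 (0.0688, of a range from 9.86e-06 to 0.0688).

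**Figure D3:**
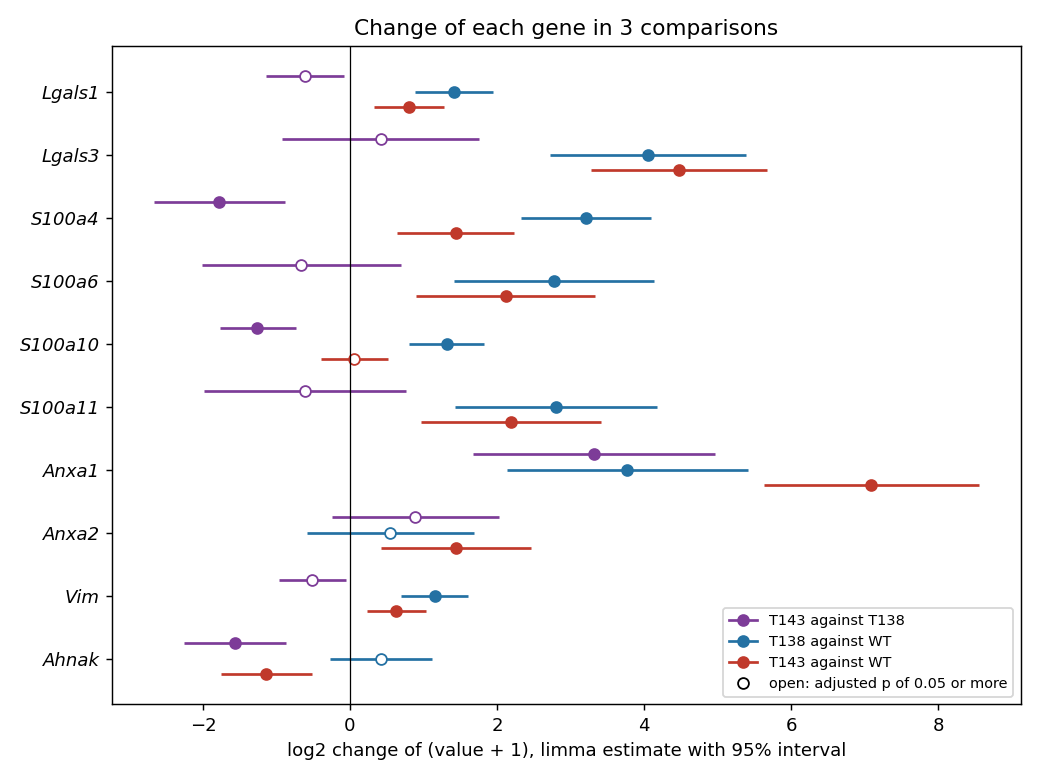
Log2 change of (value + 1) with its 95% interval for each gene, in T143 against T138, T138 against WT and T143 against WT, with filled points where the adjusted p is under 0.05. Anxa1 in T143 against WT reaches 7.09, S100a10 in T143 against WT lies at 0.06, and Ahnak is the gene below 0 in T143 against WT that passed.

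The median log2 change of the 10 was 2.09 in T138 against WT (-0.06 over all genes tested), 1.44 in T143 against WT (0.05) and -0.61 in T143 against T138 (0.15). The lines share the WT libraries, so their comparisons with WT are not independent. Groups did not overlap for 9 genes in T138 against WT, all higher (17.7% of all genes did so higher and 19.8% lower). They did not overlap for 8 higher and 1 lower in T143 against WT (20.0% and 20.7%), and for 1 higher and 5 lower in T143 against T138 (28.0% and 23.7%).

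Single libraries and the tool moved these counts, and the counts over all genes moved too. In T138 against WT 1716 genes were called, and 1278 in edgeR. In T143 against WT 3698 were called, 3365 without WT replicate 1, 2743 without WT replicate 2 and 3263 in edgeR. At an unadjusted p under 0.05, 8 of the 10 were still higher in each of these fits. Without 1 T138 library that group holds 1, so its counts then rest on an assumed spread. The 8 called higher in T138 against WT became 3 without T138 replicate 1 (Lgals1, Lgals3 and S100a4), and edgeR on recovered reads called 5 (Lgals1, Lgals3, S100a4, S100a10 and Vim). The 8 called higher in T143 against WT became 5 without WT replicate 1 and 3 without WT replicate 2 (Lgals3, S100a4 and Anxa1). It was 5 in edgeR (Lgals1, Lgals3, S100a11, Anxa1 and Vim) and 3 when the libraries richest in neutrophil RNA in each line, T138 replicate 1 and T143 replicate 3, were left out together (Lgals3, S100a6 and Anxa1). The Ahnak call there was lost without WT replicate 2 or WT replicate 3. When T143 replicate 1 and WT replicate 1, the libraries with the differing source names, were left out together, 5 were called higher in T143 against WT (Lgals3, S100a6, S100a11, Anxa1 and Anxa2). For T143 against T138, the count higher was 2 without T143 replicate 1 and 0 without T138 replicate 2, and the count lower was 5 without T143 replicate 3 and 1 without T138 replicate 2. With the mean log2 level of the neutrophil, monocyte and macrophage markers as a covariate in limma, 0 of the 10 were called in T143 against WT and 0 in T138 against WT. At an unadjusted p under 0.05, 3 were lower in T143 against WT, and 1 was higher and 1 lower in T138 against WT. Of all genes tested, 1736 and 1718 passed this unadjusted threshold in these comparisons, in either direction, and 12 and 5 were called after adjustment. In T143 against T138 0 were higher, S100a6 (-2.9, adjusted p = 0.0401) and Ahnak (-2.5, adjusted p = 0.0178) were lower, and S100a4 (-2.45, adjusted p = 0.0661) and S100a10 (-0.86, adjusted p = 0.267) were no longer called. The marker level was 10.17 to 12.65 in T143, 7.89 and 9.17 in T138 and 3.09 to 3.75 in WT, so it cannot be told apart from line in these libraries.

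Libraries of the same group divided the 10 genes further. In T143 replicate 3 against T143 replicate 1, where S100a9 was 6.36-fold higher in replicate 3, 5 genes were at least 4-fold higher: Anxa1 (7.73), S100a6 (5.62), S100a11 (5.45), Lgals3 (5.36) and Anxa2 (4.54). Of all genes tested, 11.1% did so, and the median ratio was 1.04. The other 5 were at ratios of 1.84 for S100a4, 1.81 for Ahnak, 1.31 for Vim, 1.15 for Lgals1 and 0.764 for S100a10. Markers of several cell types moved in this ratio. Cd4 was at 0.685 and Cd3e at 0.597, while Foxp3 was at 2.22, Lyz2 at 3.22, H2-Aa at 3.25 and Itgax at 3.92. In T138, where S100a9 was 6.56-fold higher in replicate 1 than in replicate 2, none of the 10 reached 4-fold, against 6.58% of all genes. Anxa1 was at 2.32 there, and the other 9 lay between 0.81 for Lgals3 and 1.22 for S100a6. These are ratios of single libraries and carry no test.

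**Figure D4:**
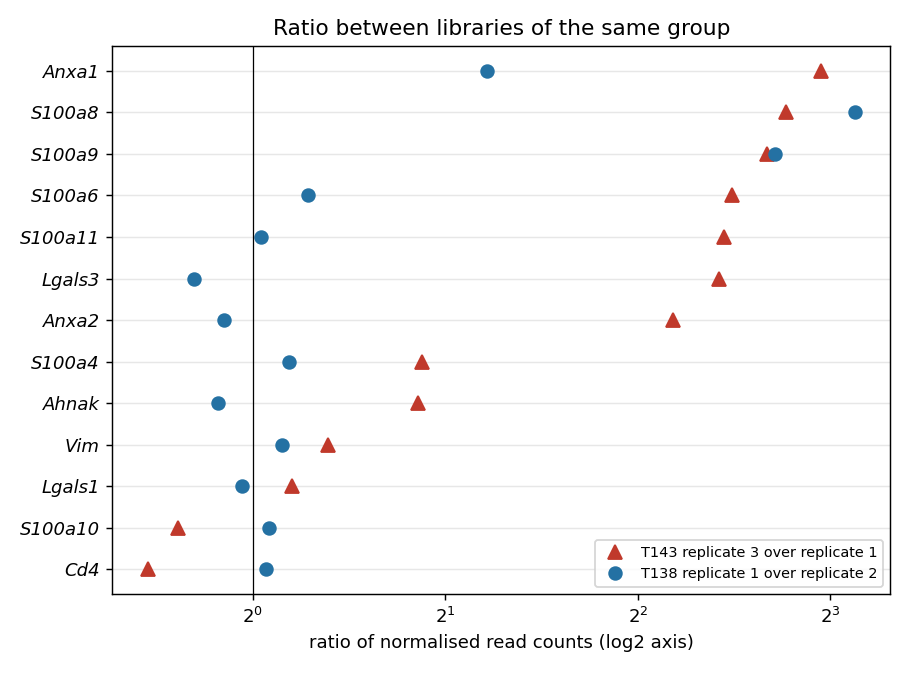
Ratio of normalised read counts between libraries of the same group (log2 axis), as T143 replicate 3 over replicate 1 and T138 replicate 1 over replicate 2, for the 10 genes, the neutrophil genes S100a8 and S100a9, and Cd4. Anxa1, S100a6, S100a11, Lgals3 and Anxa2 lie between 4.54 and 7.73 in T143, near S100a9 at 6.36, whereas in T138 only Anxa1 (2.32) exceeds 1.22 among the 10 genes.

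Per kilobase of transcript (GENCODE M21 lengths), which lets genes be compared, the mean level in T143 was highest for Anxa1 (9070), S100a10 (6770) and S100a6 (6300). Replicate 3 set the place of Anxa1 and S100a6 in this order: per kilobase Anxa1 was at 2640, 4180 and 20400 and S100a6 at 2380, 3170 and 13400 across T143 libraries, while S100a10 was at 8130, 5980 and 6200 and was the highest of the 10 in T143 replicates 1 and 2. Without replicate 3 the T143 means were 3410 for Anxa1, 2770 for S100a6 and 7050 for S100a10. In T138 it was highest for S100a4 (17500), S100a10 (16000) and Vim (7650), and in WT for S100a10 (6620), Vim (3490) and S100a4 (2050). Anxa1 was the lowest of the 10 in WT, at 44.8, and Ahnak, whose transcript of 18100 bases is the longest, was the lowest in T143 at 463.

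The S100 genes of chromosome 3 span 3.05 Mb, with S100a11 and S100a10 set apart from the others by a gap of 2824.8 kb after S100a9. They differed in which libraries they were detected in. S100a4 and S100a6 flank S100a5, which had a value above 0 in 1 library only, WT replicate 3 at 2.28. S100a3, just before S100a4, was at 1.99, 3.82 and 1.24 for T143, 75.79 and 10.16 for T138 and 3.44, 0 and 11.4 for WT, and did not pass in any comparison. S100a8 and S100a9, further along, encode calprotectin of neutrophils and rose in T143 against T138 by 5.37 ± 1.19 (adjusted p = 0.0127) and 4.45 ± 1.02 (adjusted p = 0.0158). S100a13 rose in T143 against WT (1.19 ± 0.32, adjusted p = 0.0217). Of the 13 other S100 genes 10 were tested. In T143 against WT 3 were called, all higher (11.7% of all genes), in T138 against WT 2, both higher (5.74%), and in T143 against T138 2 higher and 1 lower (10.8% and 10.2%). The lower one was S100a2 (adjusted p = 0.0496), whose highest value was 21.17 and which lies inside the S100a3 gene. S100a13 overlaps the opposite-strand gene S100a1 at its start, and whether counting used strand is not stated, so its level is uncertain.

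**Figure D5:**
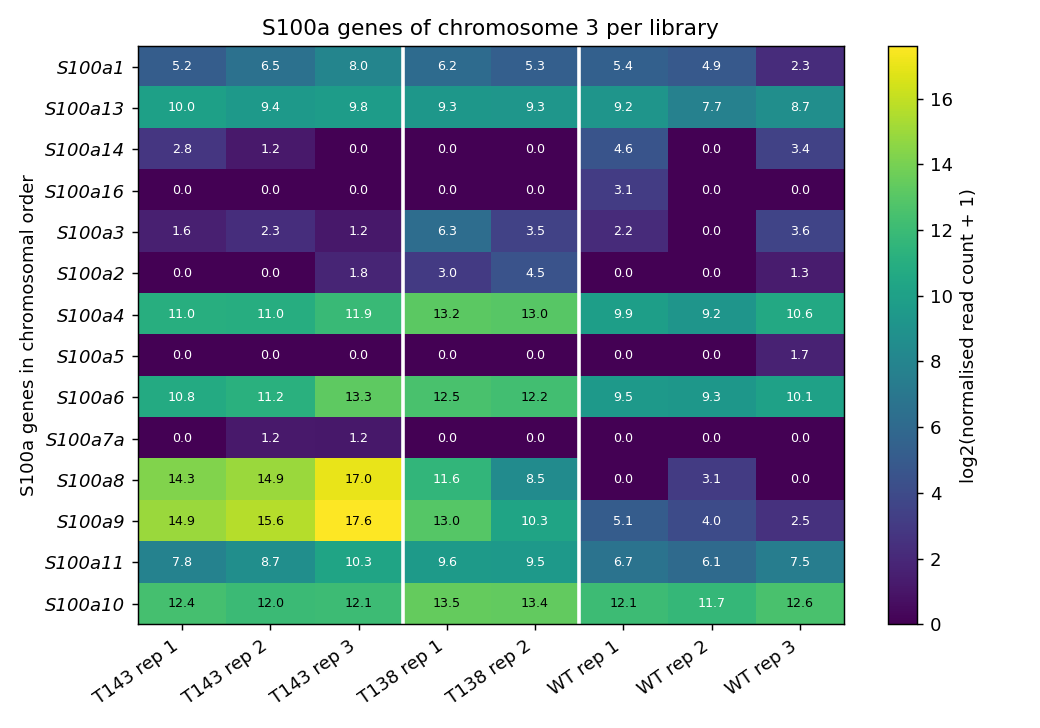
Log2(normalised read count + 1) of the S100a genes of chromosome 3 in chromosomal order (rows) in the T143, T138 and WT libraries (columns). S100a4 and S100a10 are highest in T138, S100a8 and S100a9 in T143, and S100a5 between S100a4 and S100a6 is at 0 in 7 of the 8 libraries.

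Of 9 other galectin genes 7 were tested, and 3 of them fell in T143 against T138 and against WT: Lgals4, Lgals6 and Lgals8. Of all genes 10.2% and 12.1% were called lower there. In T138 against WT their log2 changes of 0.7, 0.8 and 0.41 did not pass (adjusted p = 0.187, 0.159 and 0.145). Lgals8, a galectin that senses damaged endosomes, was at 981.1, 1177 and 1057 across T143 libraries, 2458 and 2341 across T138 libraries and 1561, 2027 and 1873 across WT libraries. It changed by -1.17 ± 0.16 in T143 against T138 (adjusted p = 0.00108) and by -0.76 ± 0.14 against WT (adjusted p = 0.00404). Lgals4 and Lgals6 are close copies, so their reads may be shared and each level is uncertain. Lgals9, a ligand of the inhibitory receptor gene product of Havcr2, was at 3025, 3061 and 2686 for T143, 2388 and 2122 for T138 and 2730, 1990 and 2586 for WT, and was not called.

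Of 10 other annexin genes 8 were tested. In T143 against WT 2 were called higher (11.7% of all genes) and in T138 against WT 2 (5.74%), with 0 lower, and in T143 against T138 1 was higher and 1 lower (10.8% and 10.2%). With so few genes, nothing is read from these counts. Anxa3, an annexin of neutrophils, was at 288.6, 495.1 and 1951 across T143 libraries, 90.55 and 33.87 across T138 libraries and 0.69, 0 and 0 across WT libraries, and was higher in T143 than in T138 (3.53 ± 0.89, adjusted p = 0.0181). Anxa4, a membrane-binding annexin, went the other way, at 105.5, 259.6 and 346.5 for T143, 688 and 901.7 for T138 and 125.3, 197 and 294.1 for WT. It changed by -1.89 ± 0.49 in T143 against T138 (adjusted p = 0.0214) and by 2.02 ± 0.49 in T138 against WT (adjusted p = 0.0255). Anxa8 was called higher in T143 against WT (2.78 ± 0.88, adjusted p = 0.0421) at values of at most 11.94. Anxa6, an annexin of lymphocytes, was at 9754 to 13160 in T143, 13080 and 13570 in T138, and 7484 to 10920 in WT, and was not called.

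Genes of actin and membrane scaffolds, tested in 31 of 32 cases, were higher for 10 and lower for 1 in T143 against WT (11.7% and 12.1% of all genes), called for 6 in T138 against WT, all higher (5.74%), and 3 each way in T143 against T138 (10.8% and 10.2%, so near the shares of all genes). Tagln2, a transgelin that binds actin, was at 7059, 5462 and 6069 across T143 libraries, 7930 and 8349 across T138 libraries and 3469, 3070 and 4772 across WT libraries. It rose by 1.14 ± 0.19 in T138 (adjusted p = 0.00452) and by 0.73 ± 0.17 in T143 (adjusted p = 0.0119), both against WT. Capg, an actin filament capping gene, was at 557.2, 421.2 and 649.8 for T143, 2307 and 2134 for T138 and 1497, 798.8 and 1601 for WT. It fell in T143 against T138 (-2.05 ± 0.29, adjusted p = 0.00124) and against WT (-1.21 ± 0.26, adjusted p = 0.00752), the direction of Ahnak. Crip1, a small LIM protein gene, was at 2995, 2354 and 2472 across T143 libraries, 5080 and 4885 across T138 libraries and 1932, 878.6 and 2037 across WT libraries, and rose in T138 (1.72 ± 0.31, adjusted p = 0.00586). Lmna, the lamin A gene, rose in T143 against WT (2.19 ± 0.37, adjusted p = 0.00225), as did the focal adhesion gene Vcl (1.76 ± 0.34, adjusted p = 0.00451). The median log2 change of this list was 0.43 in T143 against WT, 0.34 in T138 against WT and 0.13 in T143 against T138.

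Receptors, ligands and glycan enzymes that pair with galectins, S100 proteins and annexins were read from a list of 16. Fpr1 and Fpr2, formyl peptide receptors through which annexin A1 signals, are myeloid genes. Fpr2 was at 326.4, 621 and 1917 for T143, 102.4 and 43.18 for T138 and 0, 2.13 and 0 for WT, and was higher in T143 than in T138 (3.44 ± 0.88, adjusted p = 0.0204). Plaur, the urokinase receptor, was at 696.5, 819.6 and 1574 across T143 libraries, 478.3 and 418.3 across T138 libraries and 44.77, 44.73 and 53.2 across WT libraries, and rose by 4.32 ± 0.31 in T143 against WT (adjusted p = 3.02e-05) and by 3.21 ± 0.35 in T138 against WT (adjusted p = 0.000497). St6gal1, whose enzyme adds the sialic acid that blocks binding of galectin-1, was at 6794, 5718 and 4305 for T143, 1990 and 2633 for T138 and 4944, 6277 and 7253 for WT. It was lower in T138 than in WT (-1.41 ± 0.23, adjusted p = 0.00329) and higher in T143 than in T138 (1.27 ± 0.23, adjusted p = 0.00361). Cd7, a galectin-1 binding glycoprotein, rose in T138 (1.52 ± 0.28, adjusted p = 0.00707) and in T143 (1.06 ± 0.25, adjusted p = 0.013) against WT. Itgb1, the integrin beta 1 chain, was at 6299, 5597 and 5281 across T143 libraries, 15430 and 19220 across T138 libraries and 9746, 14020 and 14690 across WT libraries, and fell in T143 against T138 (-1.59 ± 0.19, adjusted p = 0.00057) and against WT (-1.14 ± 0.17, adjusted p = 0.00138). Of the 16 genes, 5 were higher and 3 lower in T143 against WT (11.7% and 12.1% of all genes), 6 and 2 in T138 against WT (5.74% and 5.30%), and 5 and 3 in T143 against T138 (10.8% and 10.2%).

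The genes whose pattern over the 8 libraries was most like each of the 10 were then listed. Likeness is Pearson's r of log2(value + 1) among 7450 genes above the median level. It is a description, since libraries of a group share their difference from the others. Lgals1, S100a4 and Vim had the adaptor gene Grb2 as the most similar gene, at 0.98, 0.986 and 0.986. Lgals3 was most like Fgr, a kinase of myeloid cells (0.992), and Spi1, the myeloid transcription factor PU.1 (0.986). S100a6 and S100a11 were most like Pik3cb (0.984 and 0.983) and Gzmb, the cytotoxic granule protease granzyme B (0.978 and 0.972). Anxa1 was most like the neutrophil genes Olfm4 (0.995), Mmp8 (0.99) and Anxa3 (0.989). Anxa2 was most like Tkt, of the pentose phosphate pathway (0.979), and S100a10 was most like Tmem109 (0.959) and Usf1 (0.959). Ahnak was most like Rps6kb2 (0.982), Hps1 (0.981) and Khnyn (0.98).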

How the data were processed

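RNA of sorted CD4-positive, Foxp3-positive mouse T cells was sequenced in 8 libraries (3 T143, 2 T138, 3 WT) with a stranded mRNA kit, per the labels' protocols. The deposited values are a signal: gene counts that the authors divided by 1 factor per library. This reading rests on the values, which were whole multiples of a step for 100% of entries within 0.01 units. CASAVA 1.8.2, STAR 2.5.2b, HOMER 4.8, edgeR and the build mm10 are named, with no role, per the submitters' processing notes. How strand and reads with several matches were treated is not stated in those notes.

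Tests used limma 3.58.1 (R 4.3.3) on log2(value + 1), trend and robust, over the 15547 genes that reached 1 in 2 or more libraries. All libraries entered 1 fit without covariate, because T138 has 2. The procedure was tested on simulated data. edgeR 4.0.16 and DESeq2 1.42.0 were run on recovered reads as alternatives. Groups came from the titles. The 10 genes, the related and marker lists and the alternatives were chosen with earlier results of these data known. Named beside the 10 were S100a8, S100a9, genes from the 4 called with the smallest p in each list and comparison, and for each gene the 3 of most similar pattern. Lgals9, Anxa6, S100a3, S100a5, Cd7, Xist and Ddx3y were named after their values were seen, as were the markers Cd3e, Lyz2 and Itgax. Alternatives covered scaling, pseudocount, filter, tool, replicate number as a block, left-out libraries and a myeloid marker covariate. Positions and promoters came from RefSeq (GRCm38.p6), matched by symbol, and transcript lengths from GENCODE M21. Depth was 7.83 to 22.64 M reads per library. Intervals of log2 changes are limma's 95% intervals. Where leaving out a library left T138 with 1, that sample was assumed to vary like the other groups.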

Additional observations from a re-analysis of the deposited data

How the results depend on the processing

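Over 21 alternatives, the log2 changes of the 10 genes kept direction and side of the threshold in 334 values from changed settings and 201 from leaving out 1 library. Of the others, 34 and 32 lost a call and kept direction, 4 and 4 gained one and 18 and 3 changed direction. Values that changed direction were counted only as such, also where a call was lost. Replicate numbers did not pair the libraries (correlations of same-numbered deviations -0.06 to 0.05), and with the number as a block 5 genes were lower in T143 against T138 (Lgals1 and Vim in addition) and Lgals3 was at -0.06. The block changed no other call of the 10. With T138 replicate 1 and T143 replicate 3 left out, genes called numbered 1737 in T143 against T138 and 989 in T138 against WT, 3 of the 10 were higher in T143 against WT, and Lgals3 was at -0.36 in T143 against T138. With T143 replicate 1 and WT replicate 1 left out, 5 were higher in T143 against WT and S100a10 was at -0.1. edgeR called 0 higher in T143 against T138 (1 at an unadjusted p under 0.05), 5 in T138 against WT and 5 in T143 against WT, and fits of only the 2 groups compared called 0 higher in T143 against T138. With the myeloid covariate, genes called numbered 976 in T143 against T138, 5 in T138 against WT and 12 in T143 against WT. Of the 10, 0 were then higher in any comparison and 0 lower in T143 against WT, while in T143 against T138 S100a6 (-2.9, adjusted p = 0.0401) and Ahnak were lower and S100a4 and S100a10 lost their calls (-2.45 and -0.86). Under it Lgals3 and Anxa2 turned to -1.56 and -0.89 in T143 against T138. In T138 against WT S100a6, S100a11, Anxa1, Anxa2 and Ahnak turned to -1.16, -0.74, -1.84, -2.57 and -1.22. In T143 against WT Lgals3, S100a4, S100a6, S100a11, Anxa1, Anxa2 and Vim turned to -0.99, -0.43, -4.06, -3.37, -1.72, -3.46 and -0.31. None of these reversed values passed, and the cause was not tested. S100a10 in T143 against WT was at -0.07 under median centring and between -0.15 and 0.29 with 1 library left out, and Lgals3 in T143 against T138 between -0.21 and 1. Leaving out 1 library gave 1345 to 3674, 757 to 1837 and 2460 to 3575 genes called in T143 against T138, T138 against WT and T143 against WT. The 10 then gave 0 to 2 higher and 1 to 5 lower, 3 to 8 higher, and 3 to 7 higher and 0 to 1 lower. After quantile normalization all genes had a median log2 change of 0.014 in T143 against T138, against 0.152 before, and of -0.078 in T143 against WT, against 0.053 before.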

Other observations

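Markers of further cell types were read as values. The 8 stromal and endothelial genes took 0.0194 to 0.0323% of the total in T143. In T138 they took 0.0236 and 0.0295% and in WT 0.022 to 0.024%. Of the 8, 1 was called higher and 1 lower in T143 against T138, near the shares of all genes (10.8% and 10.2%). The 7 erythroid genes took 0.0161 to 0.0899% in T143, 0.00754 and 0.0148% in T138 and 0.00126 to 0.00345% in WT. All 7 were called higher in T143 against WT, where 11.7% of all genes were called higher. The 6 natural killer cell genes took 0.00572 to 0.0083% in T143, 0.00472 and 0.00501% in T138 and 0.00207 to 0.00308% in WT. The 6 B cell genes took at most 0.00329%, in WT.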
